A study of Drosophila melanogaster with 2 samples.

Results

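The 10 genes described here encode the Hsp90 and Hsp70 chaperone system of Drosophila melanogaster and its regulator: Hsp83, Hsc70-4, Hsp68, Hsp70Aa, Hsp70Ab, Hsp70Ba, Hsp70Bb, DnaJ-1, stv and Hsf. They were chosen by name, with earlier results of these data known, and are 10 of the 13945 protein-coding genes of the annotation used. A region counted for a gene when its summit, the position of highest signal, lay in the gene or within 5 kb of it.

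Binding of MTF-1, the zinc-finger protein that controls metal-responsive genes, was mapped by chromatin immunoprecipitation and sequencing in whole embryos aged 0 to 24 h. The embryos came from 1 transgenic line in which GFP is fused to the C-terminal end of MTF-1, and both sexes were pooled. The 2 samples form 1 group, labelled as biological replicates 2 and 4, and the labels name no metal treatment, no heat shock and no untagged group. The free text of both samples calls them input controls while their assay and antibody labels describe an immunoprecipitation, and they were treated here as immunoprecipitates.

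Hsp90 and Hsp70 are ATP-driven chaperones that hold and refold other proteins. Hsp40 proteins such as DnaJ-1 bring clients to Hsp70, and proteins with a BAG domain such as starvin release nucleotide from it. In stressed cells the heat shock factor HSF trimerises and binds heat shock elements, arrays of GAA units in alternating orientation, in front of the chaperone genes; in Drosophila the Hsp70 genes are among the strongest induced by heat and by metals such as cadmium.

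Of the 4 peak lists on the dm6 genome, the thresholded list held 3587 peaks and the pooled list and both replicate lists held 30000 candidate regions each. The thresholded list was the same as the 3587 pooled regions of highest signal. The signal of a region is the authors' own value from the pooled or the replicate reads; its scale is not stated and read depth is unknown, so regions were ranked within a list (rank 1 is the strongest) and signal levels were not compared between lists. The labels do not say that the replicates came from separate crosses.

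Thresholded peaks lay at 6 of the 10 genes: Hsp83, Hsc70-4, Hsp68, Hsp70Ab, DnaJ-1 and stv. Over all protein-coding genes the share was 38.7%. A summit lay within 1 kb of a transcript start site (TSS) of 5 of the 10 genes, against 17.0% of all genes, and within 150 bp of a start of 4 of the 10, against 9.39%. The 4 with a summit that close were Hsp83, Hsc70-4, DnaJ-1 and Hsp68. A summit inside the gene was found for 3 of the 10 genes, against 10.9%. Among the 1793 thresholded peaks of highest signal, 2 of the 10 genes, Hsp83 and stv, had a peak within 5 kb. That is near the share of all protein-coding genes, 24.5%. The members were named with earlier results of these data known, and 10 genes are few, so these counts are descriptions.

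**Figure D1:**
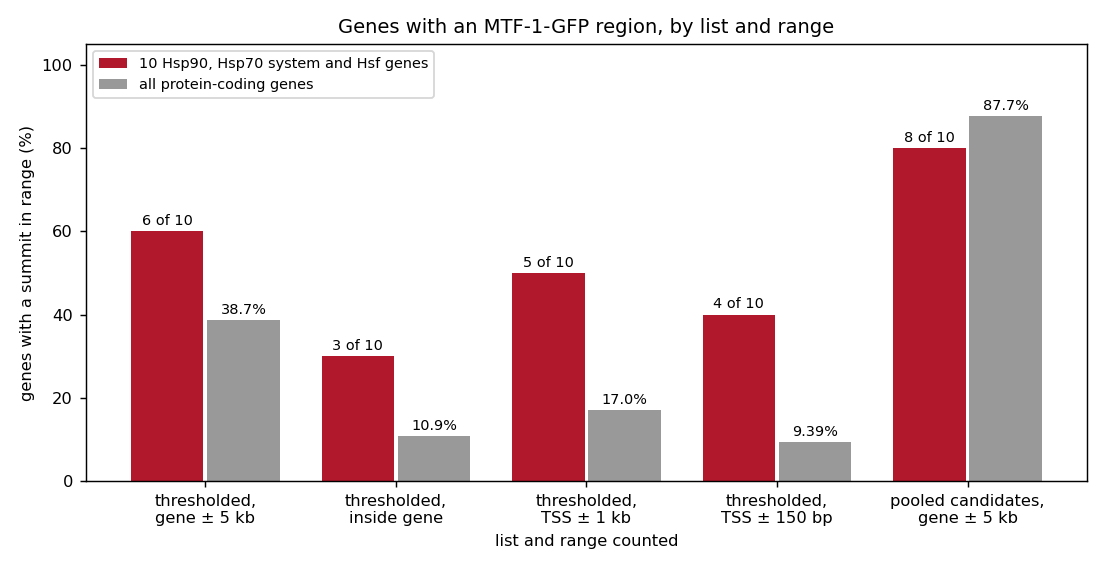
Share of genes with a region in range (y axis, percent), for the 10 chaperone system genes (red bars) and all 13945 protein-coding genes (grey bars), by list and range (x axis). The red bar is the higher one for each range of the thresholded list. For pooled candidate regions 8 of 10 genes are counted, near the 87.7% of all protein-coding genes.

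Hsp83, which encodes the fly Hsp90, had by far the strongest region of the 10 genes. Its first peak (chr3L:3192959-3193262) ranked 22 in the thresholded and pooled lists, with a signal of 1150, which is 7.5 times the median of the thresholded list. The same place ranked 16 in replicate 2 and 32 in replicate 4, with summits of all lists between 3193110 and 3193131. By its strongest region Hsp83 stood at place 68 among the 13945 protein-coding genes. The summit, 3193115, lay between the 2 annotated starts of the gene, 146 bp downstream of the first (3192969) and 101 bp upstream of the second (3193216).

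The next peak of Hsp83 (chr3L:3194191-3194360) lay in an intron, 1318 bp downstream of the first start. It ranked 375 in the thresholded list with a signal of 349, 542 in replicate 2 and 306 in replicate 4, so both replicates placed it near the top of their lists. The third (chr3L:3198882-3199225, rank 2073, signal 141) lay 1995 bp past the end of the gene, and its summit was 7 bp from the start of CG32276. It ranked 2117 in replicate 2 and 2529 in replicate 4, where the summit was 1 bp from the start of gry. Hsp83 was the 1 gene of the 10 with 3 or more thresholded peaks in range, against 5.54% of all protein-coding genes.

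**Figure D2:**
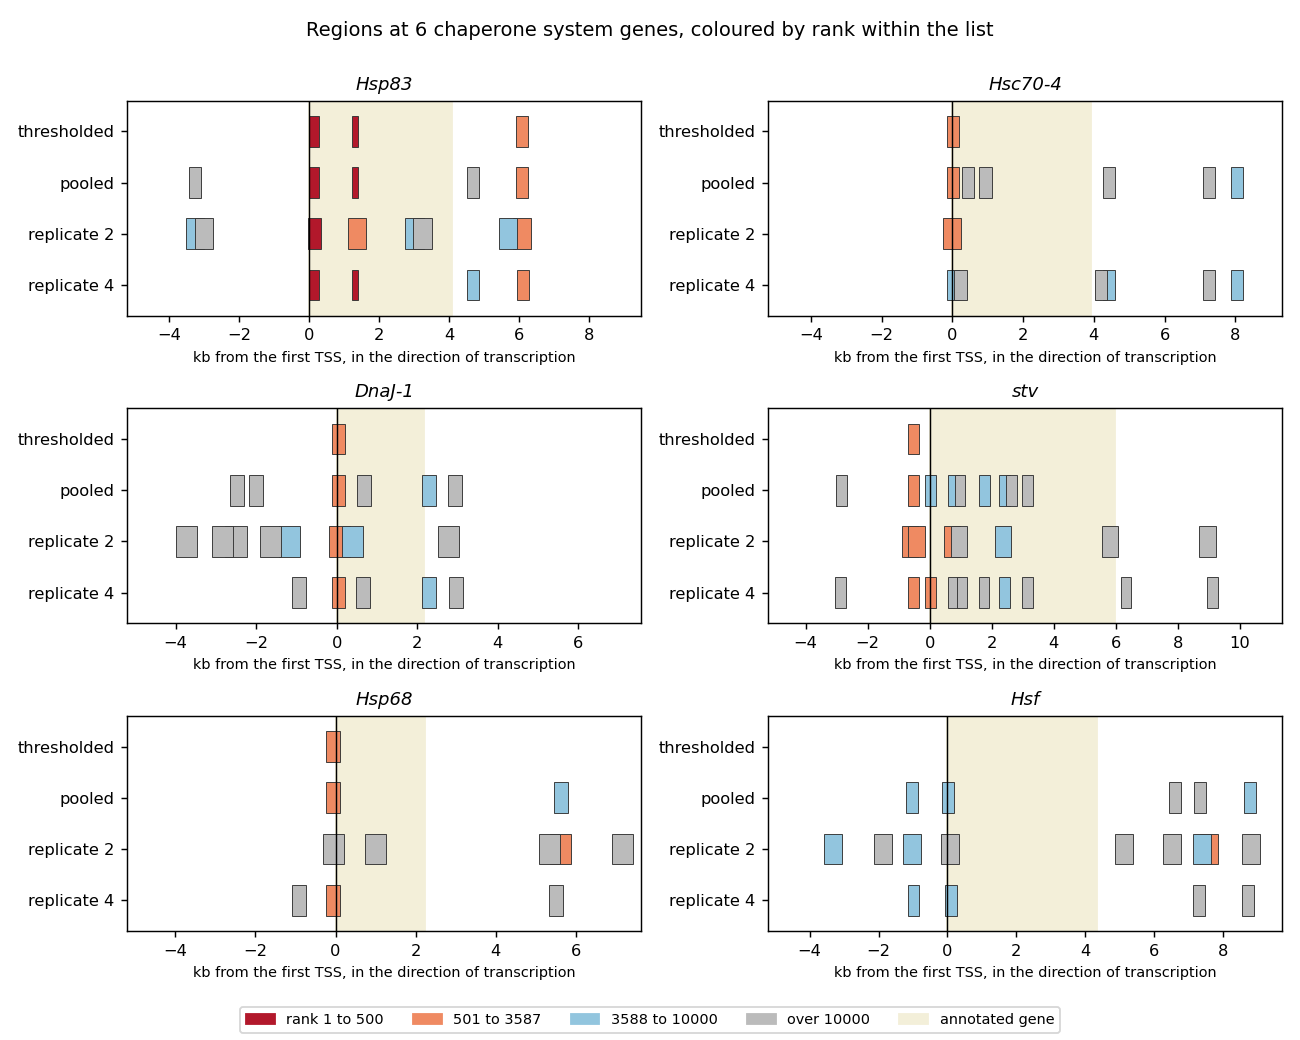
Regions of the 4 lists (rows) at Hsp83, Hsc70-4, DnaJ-1, stv, Hsp68 and Hsf by distance from the first start (x axis, kb, in the direction of transcription), coloured by rank within the list; the shaded band is the gene. In all 4 lists a region of rank 1 to 500 lies at the Hsp83 start, whereas Hsf has none in the thresholded list.

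The sequence beside the strongest Hsp83 summit is shown because it carries both a heat shock element pair and a metal response element core (MRE, the site that MTF-1 binds). Sequences here are the RefSeq sequence of the dm6 assembly, and capitals mark the match. The pair GAAGTTTC was centred 36 bp from the summit and began 68 bp upstream of the second start, and the core TGCGCAC was 46 bp from the summit on the other side. In the printed line CTC and GAG flank the pair at gaps of 2 bases, with a GAA and a TTC beyond them at the same gaps. Only exact GAA and TTC units were searched, so this longer array was matched as a pair alone.
Hsp83 heat shock element pair, chr3L:3193137-3193166, plus strand: agaagcctctaGAAGTTTCtagagacttcc
Hsp83 metal response element core, chr3L:3193054-3193083, plus strand: gcccgcacaggtTGCGCACttttcgaccgt

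Hsc70-4 encodes the main cytosolic Hsp70 family member made without stress. Its peak (chr3R:15242539-15242882) ranked 2287 in the thresholded list with a signal of 133, 1208 in replicate 2 and 6752 in replicate 4. Replicate 2 placed it far higher than replicate 4 did. The summit lay 24 bp downstream of the first of the gene's 6 starts in the pooled list, 9 bp upstream of it in replicate 2 and 25 bp downstream in replicate 4. None of the searched motifs other than TATAAA lay within 100 bp of this summit.

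Hsp68 encodes a heat-inducible member of the Hsp70 family with a sequence of its own, and it is the inducible gene of that family whose promoter had a thresholded peak. The peak (chr3R:24057203-24057546, signal 123) had its summit 65 bp upstream of the start and ranked 2696. It ranked 2633 in replicate 4, with the summit at the same base, but 20873 in replicate 2, with the summit 52 bp upstream. The strongest region in range in replicate 2 was another one, of rank 987, whose summit was 15 bp from the start of Pisd, 3384 bp from the Hsp68 gene. That Pisd region ranked 4885 in the pooled list, past the end of the thresholded list.

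The Hsp68 promoter is shown because 2 heat shock element pairs lay 16 and 18 bp from its summit, and an array of overlapping elements of 3 units was centred 101 to 111 bp from it. Capitals mark these elements; the gene's start follows the last base.
Hsp68, the 200 bases before the start, chr3R:24057311-24057510, minus strand: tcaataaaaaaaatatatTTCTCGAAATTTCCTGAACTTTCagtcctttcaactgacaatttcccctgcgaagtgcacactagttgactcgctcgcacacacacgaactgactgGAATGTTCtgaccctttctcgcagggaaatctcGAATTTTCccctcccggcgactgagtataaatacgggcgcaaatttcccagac

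DnaJ-1 encodes the Hsp40 partner of Hsp70. Its peak (chr3L:5751972-5752315, signal 141) ranked 2071 in the thresholded list, 1602 in replicate 2 and 1957 in replicate 4, so the lists placed it alike. The summit lay 45 bp downstream of the start in the pooled list, 79 bp downstream in replicate 2 and 46 bp downstream in replicate 4. The heat shock element pair GAAATTTC was 48 bp from the pooled summit and an MRE core, TGCGCAC, 65 bp from it on the other side. In the printed line ATC lies before the pair and a GAA before that, each at a gap of 2 bases.
DnaJ-1, bases around and before the start with the pair in capitals, chr3L:5752185-5752284, minus strand: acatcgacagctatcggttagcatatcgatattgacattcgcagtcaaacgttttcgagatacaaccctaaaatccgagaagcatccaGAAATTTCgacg

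Starvin, the product of stv, is a BAG-domain co-chaperone of Hsc70-4 that works in the upkeep of muscle. Its peak (chr3L:13476844-13477187, signal 162) ranked 1610 in the thresholded list and 2042 in replicate 4, with the summit 525 bp upstream of the first start in the pooled list and 526 bp in replicate 4. Replicate 2 held 2 overlapping regions there, of rank 769 with a summit 644 bp upstream and of rank 1036 with a summit 426 bp upstream. A further region lay at the start itself, 23 bp downstream of it, and ranked 2773 in replicate 4 and 4152 in the pooled list, just past the thresholded list. Replicate 2 had no region with a summit at that start, and its next strongest, of rank 1751, lay 729 bp downstream in a coding exon. A pair in the other order, TTCAAGAA, was 30 bp from the upstream summit.
stv, 101 bases centred on the upstream summit with the pair in capitals, chr3L:13476966-13477066, plus strand: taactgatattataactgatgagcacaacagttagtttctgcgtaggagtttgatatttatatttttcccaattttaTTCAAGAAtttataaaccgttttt

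Hsf, the gene of the heat shock factor itself, had no thresholded peak within 5 kb. Its strongest pooled region (chr2R:18135492-18135835) ranked 3833, past the last thresholded rank of 3587, and its summit lay 1030 bp upstream of Hsf and 238 bp from the start of Pcl, a Polycomb group gene. That region ranked 4320 in replicate 2 and 4507 in replicate 4. A weaker one at the Hsf start itself, with a summit 12 bp downstream of it in the pooled list, ranked 6143 there with a signal of 74.3, 6230 in replicate 4 and 19977 in replicate 2. The nearest thresholded peaks lay 6183 and 7193 bp from the gene, with ranks 1921 and 994, and the nearest start to both was that of pAbp.

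**Figure D3:**
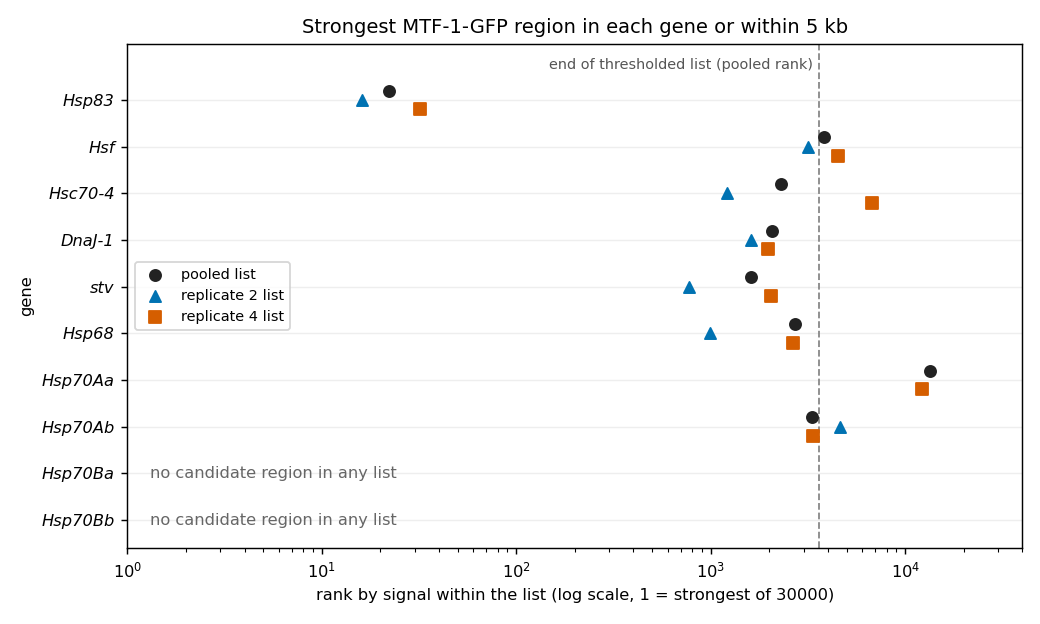
Rank of the strongest region in each gene or within 5 kb (x axis, log scale, 1 is the strongest of 30000) for each of the 10 genes (rows) in the pooled list (circles), replicate 2 (triangles) and replicate 4 (squares). Hsp83 stands apart at ranks 16 to 32, Hsp70Aa has ranks of 12192 and 13386, the other genes with a region lie between ranks 769 and 6752, and Hsp70Ba and Hsp70Bb have no region; the replicate 2 point of Hsp68 is the region at the Pisd start.

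Hsp70Aa and Hsp70Ab are a divergent pair of heat-inducible Hsp70 genes at cytological region 87A, and Hsp70Ba and Hsp70Bb are copies at 87C, where Hsp70Bbb and Hsp70Bc also lie. No thresholded peak lay in any of these 6 genes or within 1 kb of their starts. Between Hsp70Aa and Hsp70Ab the pooled list held 2 candidate regions, of rank 13386, 480 bp upstream of Hsp70Aa, and of rank 21408, 771 bp upstream of Hsp70Ab. Replicate 4 ranked them 12192 and 13099, and replicate 2 had none there. Hsp70Ba and Hsp70Bb had no region within 5 kb in any of the 4 lists. In total 8 of the 10 genes had a pooled candidate region, near the share of all protein-coding genes, 87.7%. The count was 7 of 10 in replicate 2, against 89.4%, and 8 of 10 in replicate 4, against 87.5%.

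The Hsp70 copies differ from the other members in how much of their sequence occurs once in the genome, which bears on whether a read can be placed. Of the 50-base words starting in the gene, 2.4% were unique in Hsp70Aa, 2.9% in Hsp70Ab, 14.2% in Hsp70Ba and 4.8% in Hsp70Bb, against 96.1% in Hsp83 and 100% in the other 5 members. In the 250 bp before the start the unique share was 0% for Hsp70Aa and Hsp70Bb, 12.4% for Hsp70Ab and 32.8% for Hsp70Ba. The longest identical run was 2356 bp between the genes Hsp70Aa and Hsp70Ab, and 830 bp between Hsp70Ba and Hsp70Bb. Between an 87A and an 87C copy it was 146 bp.

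Regions were rarely listed in such sequence anywhere in the genome. Of all protein-coding genes, 374 (2.68%) were under 50% unique. A pooled region had its summit inside 26 of these (6.95%), against 5278 of the 12956 genes that were at least 95% unique (40.7%). None of the 3587 thresholded peaks and 1 of the 29999 pooled regions on the chromosomes used was itself under 50% unique. At the 4 Hsp70 members and their promoters, a place without binding cannot be told apart from one where reads were not placed. The flank downstream of Hsp70Ba is mostly unique (96.2% of the 5 kb), and no region was listed there either.

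**Figure D4:**
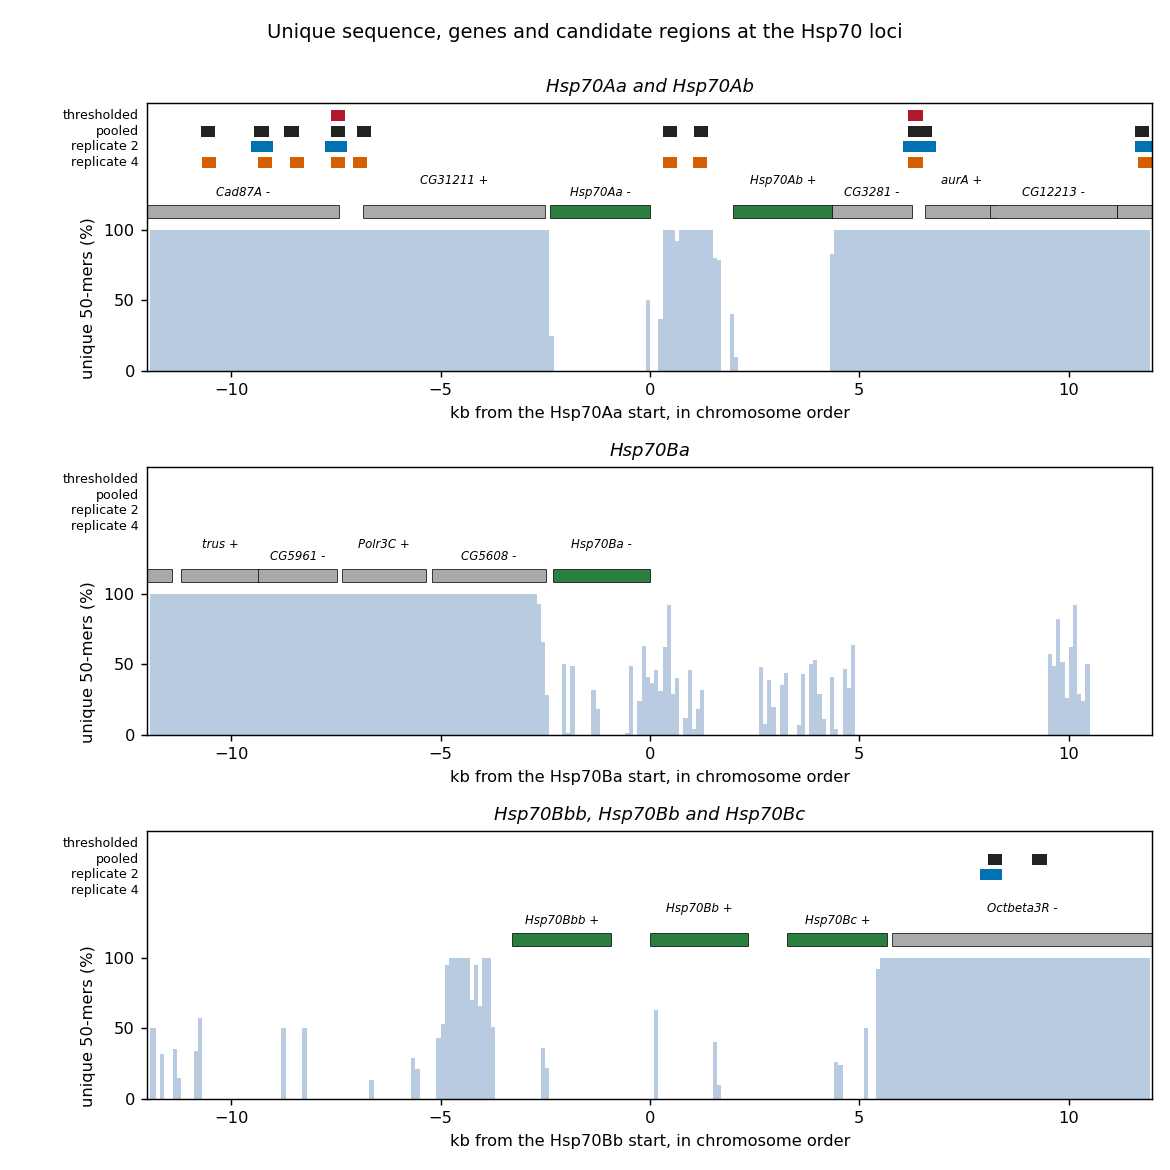
Share of unique 50-base words in steps of 100 bp (y axis, percent) around Hsp70Aa and Hsp70Ab (top), Hsp70Ba (middle) and Hsp70Bbb, Hsp70Bb and Hsp70Bc (bottom), with Hsp70 genes in green, other protein-coding genes in grey and the regions of each list above, by distance from a start (x axis, kb, chromosome order). Unique shares are low over most of each green gene, with scattered higher steps in Hsp70Ba (up to 63%) and a unique end of Hsp70Bc, and the drawn regions lie over mostly unique sequence.

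The promoters of the 4 Hsp70 members are shown because they share the heat shock element next to the start. In capitals is the proximal element, 3 units in the order GAA, TTC and GAA with neighbouring units 2 bases apart. It was found in the 250 bp before the start in 6 of 6 Hsp70 genes of 87A and 87C, and the 30 bases around it occur 6 times in the genome. The gene's start follows the last base of each line.
Hsp70Aa, chr3R:11956545-11956644, minus strand: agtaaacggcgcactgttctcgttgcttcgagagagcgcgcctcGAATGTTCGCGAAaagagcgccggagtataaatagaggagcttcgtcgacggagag
Hsp70Ab, chr3R:11958435-11958534, plus strand: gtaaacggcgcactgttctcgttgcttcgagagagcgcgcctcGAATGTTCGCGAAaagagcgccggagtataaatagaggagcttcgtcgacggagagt
Hsp70Ba, chr3R:12467777-12467876, minus strand: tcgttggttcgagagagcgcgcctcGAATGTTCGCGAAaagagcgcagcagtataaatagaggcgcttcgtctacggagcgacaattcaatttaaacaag
Hsp70Bb, chr3R:12505693-12505792, plus strand: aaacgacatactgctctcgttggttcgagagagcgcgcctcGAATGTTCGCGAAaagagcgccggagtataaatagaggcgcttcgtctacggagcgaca

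The thresholded peaks near the 87A pair lay on either side of it. That counted for Hsp70Ab (chr3R:11962718-11963061, rank 3313, signal 109) had its summit 1981 bp past the end of the gene, between the divergent genes CG3281 and aurA and 85 bp from the CG3281 start. It ranked 4639 in replicate 2 and 3370 in replicate 4. On the other side a peak (chr3R:11948921-11949264, rank 1514, signal 168) lay 36 bp from the start of Cad87A and 5070 bp from Hsp70Aa, just outside the range. The interval between CG3281 and aurA holds the boundary element scs′, which binds the insulator protein BEAF-32 at repeats of CGATA. It is shown because 3 copies of CGATA, a motif searched after the data were seen, lay 24, 4 and 4 bp from the summit, the last on the minus strand. CGATA lay within 100 bp of 2 of the 8 distinct thresholded peaks at the 10 genes, this 1 and that at stv, against 28.0% of all thresholded peaks.
CG3281 to aurA interval, 101 bases centred on the summit with CGATA and its reverse complement in capitals, chr3R:11962840-11962940, plus strand: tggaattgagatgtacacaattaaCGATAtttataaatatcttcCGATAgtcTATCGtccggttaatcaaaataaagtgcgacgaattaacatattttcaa

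In all, 8 distinct thresholded peaks lay at the 10 genes, and 8 of 8 overlapped a region in both replicate lists. That is near the 95.4% of all thresholded peaks. The thresholded list was derived from the candidate lists, so this overlap is a description and not separate support. Of the 8, 5 were among the 3587 strongest of both replicates, against 59.0% of all. Replicate ranks differed by 5-fold or more for 2 of the 8, those at Hsc70-4 and Hsp68, against 12.2% of all thresholded peaks found in both lists. The median fold between replicate ranks was 1.89 for the 8 peaks and 2.02 for all.

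Motifs were counted on both strands within 100 bp of the 8 summits, beside all thresholded peaks and 14859 pooled regions of below-median signal. The heat shock element pair GAANNTTC (N is any base) lay at 3 of 8, those at the starts of Hsp83, DnaJ-1 and Hsp68, against 4.88% of all thresholded peaks and 5.26% of the weak regions. The pair in the other order, TTCNNGAA, lay at 1 of 8, against 4.8% and 4.19%. The MRE core TGCGCNC lay at the same 3 as GAANNTTC, against 10.1% and 7.19%. The other MRE core, TGCACNC, lay at 2 of 8, against 432 of 3587 thresholded peaks and 1505 of the weak regions. An element of 3 exact units in a row was within 100 bp of none of the 8. Arrays with inexact units, such as those in the printed Hsp83 and DnaJ-1 lines, were not counted by this rule. Inexact units were not searched at any peak.

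TATAAA, the core of the TATA box, lay at 6 of 8 summits, against 26.8% of all thresholded peaks and 18.7% of the weak regions. These matches were counted wherever they lay relative to a start. At Hsp83, Hsc70-4 and Hsp68 the match began 30, 27 and 28 bp upstream of a start. At DnaJ-1 it began 21 bp downstream of the start. The stv and Hsp70Ab summits lay 525 and 4355 bp from the nearest starts of those genes. The sites GAGAG of the GAGA factor, TATCGATA of DREF and GGTCACAC of M1BP lay at 0 of 8, against 31.3%, 2.9% and 3.01% of all thresholded peaks. Within 250 bp, GAGAG lay at 2 of 8, those at Hsc70-4 and stv, against 58.3% of all thresholded peaks. A match is a description of the letters there, and 8 peaks are few.

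In the promoters of the genes, from 250 bp before to 50 bp after a start, the heat shock element of 3 units was present for 6 of the 10 genes: Hsc70-4, Hsp68, Hsp70Aa, Hsp70Ab, Hsp70Ba and Hsp70Bb. It was present at 0.418% of the 19607 promoters of protein-coding genes, counted per start while the members were counted over all their starts. The pair GAANNTTC was present for 8 of the 10 genes, all but Hsf and stv, against 9.34% of promoters. TATAAA was present for 9 of the 10, all but Hsf, against 42.2%. GAGAG was present for 6 of the 10, the 4 Hsp70 copies, Hsc70-4 and stv, against 33.1%. The pair TTCNNGAA was present for 6 of the 10, against 7.61%, and the MRE cores TGCGCNC and TGCACNC for 4 and 3 of the 10, against 10.5% and 11.3%. The 4 Hsp70 copies share sequence and are not independent examples in these counts.

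A list of 46 other chaperone genes, 45 of them protein-coding, was set beside the members. Thresholded peaks lay in or within 5 kb of 25 of the 45 (55.6%), against 38.7% of all protein-coding genes, and within 1 kb of a start of 16 (35.6%), against 17.0%. The 25 genes had 28 distinct peaks in range, and 7 genes of the small heat shock cluster shared 2 strongest ones. Fkbp59, an immunophilin that binds Hsp90, had a peak of rank 282 with its summit 27 bp from its start, the nearest to it of any gene. The same held for the Hsp40 gene mrj (rank 565, 310 bp), Hsc70-3, the Hsp70 of the endoplasmic reticulum (rank 736, 514 bp), and Tpr2 (rank 976, 1322 bp).

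Gp93, the Hsp90 of the endoplasmic reticulum, had a peak of rank 2738 at 15 bp from its start, and P58IPK, an Hsp40 of that compartment, 1 of rank 3567 at 34 bp. Sgt had a peak of rank 2580 at 800 bp from its start, which was the nearest of any gene. Several other peaks in range lay nearest to a neighbour's start. The peak of rank 75 near CG7130 was 8 bp from the start of RpLP0 and 328 bp from that of CG7130. That of rank 2660 near Hsc70-5, the mitochondrial Hsp70, was 115 bp from the start of CG8531 and 186 bp from that of Hsc70-5. Stip1, which joins Hsp70 to Hsp90, and Trap1, the mitochondrial Hsp90, had peaks of ranks 2317 and 2352 at the starts of Pi3K21B and Vha16-1. Counting a peak only for the gene with the nearest start, 11 of the 45 (24.4%) had a peak, against 16.0% of all protein-coding genes.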

How the data were processed

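Sequencing of MTF-1-GFP immunoprecipitates from 2 embryo samples gave 4 deposited peak lists on dm6. Per the deposited read-me, the authors made a list of peaks and background for each replicate and for both replicates pooled, each with a further shared file that was not analysed here, and derived the thresholded list from them by the irreproducible discovery rate. Each region carries the authors' signal, on a scale that is not stated, and the authors' −log10 of a q-value. Signal was used to rank regions within a list. Not given in the sources used here are the aligner, peak caller, threshold and read numbers, so depth and counting error are unknown.

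Gene models were Ensembl release 115 on BDGP6.54, the assembly of dm6. In the genome sequence, 0 regions lay beyond a chromosome end. Coordinates are 1-based. The 6 chromosomes 2L, 2R, 3L, 3R, 4 and X were used. Unique 50-base words were counted on both strands of the whole genome, and motifs on both strands. Scripts used Python 3.11.15, numpy 2.4.6, pandas 2.3.3 and matplotlib 3.10.9, and were tested on simulated regions and sequences. No test was made, as there is 1 group.

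The genes named are the 10 members, genes of a chaperone list with a thresholded peak within 5 kb, the other Hsp70 copies, and genes whose start is nearest to a summit at a member. Of the 46 listed genes 3 were found under a newer symbol. Cad87A, pAbp, RpLP0, CG8531, Pi3K21B and Vha16-1 fall outside this rule and were named after their values were seen. The members and lists were chosen with earlier results of these data known. The motif CGATA and the range of 150 bp from a start were added after the data were seen. Alternatives changed the range, the list, the replicate, the overlap, the motif window and the word length.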

Additional observations from a re-analysis of the deposited data

How the results depend on the processing

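The count of 6 members with a thresholded peak (38.7% of all protein-coding genes) fell to 3 (Hsc70-4, DnaJ-1 and Hsp83; 10.9% of all) when the summit had to lie inside the gene. It fell to 2 (stv and Hsp83) with the 1793 peaks of highest signal, a share near the 24.5% of all genes. In both cases fewer regions or positions could count. Ranges of 1, 2 and 10 kb gave 5, 6 and 8 members, against 22.4%, 27.2% and 52.8% of all genes, the last adding Hsp70Aa and Hsf. Counting only the gene with the nearest start gave 5, against 16.0%. With the 3587 strongest regions of 1 replicate in place of the thresholded list the count was 5 to 6. Without replicate 2 (5 members, against 39.4%) Hsc70-4 dropped out, and without replicate 4 (6 members, against 37.0%) Hsp70Ab dropped out, Hsf came in through a region in Spn55B and Hsp68 counted through the Pisd region; the cause was not tested. Members with a candidate region numbered 7 to 8 when either replicate was left out, and Hsp70Aa was absent without replicate 4. With a range of 1 kb in the pooled list 8 members had a candidate region, against 65.8% of all genes. The 8 peaks found in both replicates remained 8 under both stricter overlaps, against 91.2% and 85.8% of all thresholded peaks. With words of 36, 50 and 100 bases 4 members were under 50% unique. Ranks moved between replicates at Hsc70-4, stv and Hsp68, as given in the report. With 50 and 250 bp to each side of a summit, GAANNTTC lay at 2 and 5 of the 8 peaks (2.17% and 12.4% of all thresholded peaks), TTCNNGAA at 1 and 3 (2.65% and 11.7%), TGCGCNC at 1 and 3 (5.35% and 21.7%) and TGCACNC at 1 and 3 (6.41% and 25.8%). An element of 3 units lay at 0 and 1 (0.0279% and 0.53%), GAGAG at 0 and 2 (15.8% and 58.3%), TATCGATA at 0 and 1 (1.56% and 5.07%), GGTCACAC at 0 and 0 (1.37% and 4.99%) and TATAAA at 4 and 6 (538 and 1833 of the 3587). No paired analysis was possible because there is 1 group and no comparison between groups. Read depth is unknown, so weak ranks cannot be given an error.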

Other observations

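The long noncoding RNA gene lncRNA:Hsromega, whose nuclear transcript gathers RNA-binding proteins after heat shock, was the 1 gene of the chaperone list that is not protein-coding. It had a thresholded peak of rank 725 with a signal of 249, whose summit lay 1054 bp from its nearest start. Of the 50-base words in that gene 55.1% were unique. The small heat shock genes Hsp27 and Hsp26 had the nearest starts to the peaks of ranks 211 and 1722, at 131 and 33 bp. Of the 8 genes of the CCT chaperonin, the ring that folds actin and tubulin, 3 had a thresholded peak within 5 kb, a share near the 38.7% of all protein-coding genes. They were CCT3, CCT5 and CCT7, and the start nearest to the strongest peak of each was that of another gene.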
